A study of Mus musculus with 2 samples.

Results

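The genes described here are 216 solute carrier genes, found among 388 gene symbols that begin with Slc or Slco and a digit, in a table of 31053 gene rows. They are those with at least 50 UMIs summed over all cells of 2 single-cell RNA libraries. A UMI (unique molecular identifier) stands for 1 captured RNA molecule. Slco2a1 was left aside. Of the 388 symbols, 323 had at least 1 UMI. The members nearest above the limit were Slc26a3 with 50 UMIs, Slc2a12 with 51 and Slc11a1, Slc40a1 and Slc16a7 with 53, and those nearest below it were Slco5a1 and Slc38a3 with 48 UMIs and Slc16a10 with 47. The members were chosen by their total UMIs, so these totals are a description only. Of the 216, 4 carry such a symbol without being carriers: the scaffold genes Slc9a3r1 and Slc9a3r2, the adaptor gene Slc4a1ap, and Slc7a6os, a protein-coding neighbour of Slc7a6 on the opposite strand.

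The cells were endothelial and came from the ileum, where the small intestine ends. The mice were C57Bl/6 males of 8 weeks, labelled WT. Sorting took CD31-positive cells without EpCAM or CD45, blood endothelial cells being PDPN-negative and lymphatic endothelial cells PDPN-positive. No label separates the libraries by treatment or genotype. They are 1 group with n = 2, and the comparisons are between kinds of vessel within each library. The labels do not say whether separate mice were used. P-values then measure only how far the differences between classes varied between these 2 libraries, which may be technical.

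Solute carriers are membrane proteins that move small molecules such as sugars, amino acids, nucleosides, lactate, metals, vitamins and inorganic ions, mostly by facilitated diffusion or coupled to a gradient of sodium, protons or chloride. Others sit in mitochondria, lysosomes, the endoplasmic reticulum or the Golgi apparatus. In the gut wall, substrates taken up by the epithelium reach the blood through fenestrated capillaries and the lymph through lacteals, and endothelial cells also use carriers for their own metabolism.

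Cells were put into 5 classes by raw UMIs of 15 marker genes, none of which is a solute carrier. A lymphatic cell had at least 5 UMIs of Mmrn1, Lyve1 and Prox1 together, and a blood cell at least 5 of Flt1, Cd34, Plvap and Esam. Blood cells with at least 4 UMIs of Ackr1, Selp and Madcam1 were venous, those with at least 3 of Sema3g, Fbln5 and Stmn2 arterial, and the rest capillary. A capillary cell was Plvap-high where Plvap exceeded the sum of Gpihbp1 and Aqp1, and Gpihbp1/Aqp1 otherwise. Libraries 1 and 2 gave 81 and 1072 lymphatic cells, 98 and 438 venous, 147 and 883 arterial, 361 and 2362 Plvap-high capillary, and 231 and 1084 Gpihbp1/Aqp1 capillary cells. Levels are CPM, the UMIs of a gene scaled to a common total of all UMIs of that class and library, and are given as a pair, library 1 first. The 3 counts taken as the detection floor come to between 2.16 and 10.9 CPM in the classes of library 1 and between 0.288 and 1.02 CPM in those of library 2.

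Library 1 held 3806199 UMIs in 1026 barcodes and library 2 held 26645476 in 6302, so levels from library 2 have the smaller counting error. Independent lymphatic markers such as Ccl21a and Reln summed to 13198 and 10491 CPM in the lymphatic class and to at most 142 CPM in any blood class. As sums, arterial markers were highest in the arterial class and venous markers, 1 of which (Selp) is a gate gene, in the venous class. Each arterial and venous marker did so singly except 1 per list. Nr2f2, a venous marker, was highest in lymphatic cells (995 and 878 CPM against 498 and 481 CPM in venous cells). Sox17, an arterial marker, was highest in Gpihbp1/Aqp1 capillary cells (551 and 616 CPM against 394 and 550 CPM in arterial cells). Of the blood markers, Tie1 was highest in lymphatic cells of library 1. Capillary markers summed to 6929 and 7057 CPM in Gpihbp1/Aqp1, 3598 and 3769 CPM in Plvap-high and 3054 and 3134 CPM in arterial cells. By these sums, Plvap-high cells lay closer to arterial than to Gpihbp1/Aqp1 cells. Cd36 was lower in Plvap-high than in arterial cells (1278.5 and 1257.2 against 1548.4 and 1562.5 CPM), as was Cd300lg in library 1. Rgcc, Car4 and Kdr were higher in Plvap-high than in arterial cells, though Kdr reached 1411 and 1265.7 CPM in lymphatic cells. Median UMIs per cell ran from 2934 and 2276.5 in lymphatic cells to 5352.5 and 6412 in venous cells, and lymphatic cells had the highest mitochondrial share of the classes in library 2 (5.32%) and a share of 3.42% in library 1. In library 2, leukocyte markers reached 2722 CPM in the venous and 891 CPM in the lymphatic class, epithelial markers 750 CPM in the Plvap-high class and haemoglobin and Alas2 2147 CPM in the Gpihbp1/Aqp1 class. Fibroblast markers came to 360 and 412 CPM and pericyte and smooth muscle markers to 339 and 399 CPM in the arterial and Gpihbp1/Aqp1 classes of library 2, and the latter to 336 CPM in the venous class. Leaving out the 43 cells of library 2 with over 1% of UMIs in such markers ended 3 of 181 calls on single members, of which that of Slc12a2 is described below. Beyond this, the part of these other cells in the results was not tested. Solute carriers took 0.745 and 0.703% of UMIs in lymphatic cells, 0.763 and 0.757% in venous, 0.924 and 0.925% in arterial, 0.838 and 0.831% in Plvap-high and 0.831 and 0.837% in Gpihbp1/Aqp1 capillary cells. The arterial share was the highest in both libraries and the lymphatic share the lowest.

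Of the 216 members, 183 had enough counts to be tested, and 33 did not pass edgeR's expression filter. A member high in 1 class passes that filter more easily than one low everywhere. Counts over the tested members therefore describe them and support nothing further. Over all 5 classes, 106 of the 183 differed (57.9%) at an adjusted p under 0.05, against 56.7% of the 11243 genes tested. The test was quasi-likelihood in edgeR, and p-values were adjusted over all 11243 genes by Benjamini and Hochberg's method. The ± after each log2 fold change below is an approximate standard error, worked back from the size of that change and its F statistic. It holds no information on spread beyond that of the test itself. The share among solute carriers was thus close to that of genes in general. The class with the highest level was the same in both libraries for 80 of the 106: lymphatic for 27, venous for 20, arterial for 12, Gpihbp1/Aqp1 capillary for 12 and Plvap-high capillary for 9. This split was not computed over all genes tested, so it cannot be read as a trait of solute carriers.

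**Figure D1:**
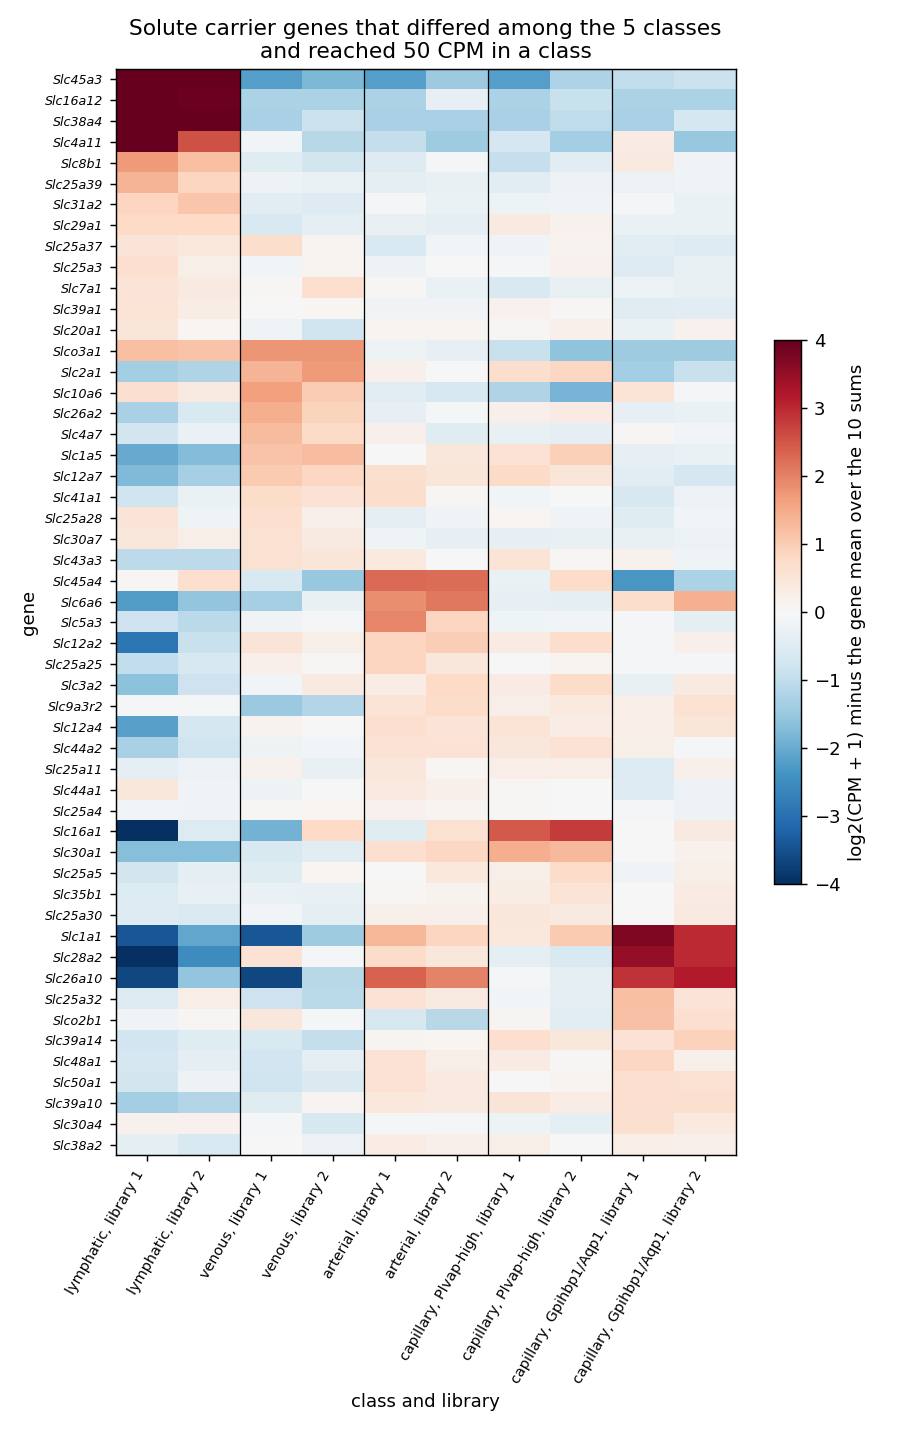
Solute carrier genes (rows) that differed among the 5 classes and reached a mean of 50 CPM in a class, 52 of 54 shown, with columns for each class and library; colour is log2(CPM + 1) minus the gene's mean over the 10 columns, cut at 4 in either direction. Genes are sorted by the class with the highest mean, and the blocks for Slc45a3, Slco3a1, Slc45a4, Slc16a1 and Slc28a2 lie in lymphatic, venous, arterial, Plvap-high and Gpihbp1/Aqp1 columns of both libraries.

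Lymphatic cells differed from the mean of the 4 blood classes at 84 of the 183 tested members (45.9%), 36 higher and 48 lower, against 47.3% of all genes tested. The median log2 fold change was 0.003 over tested members and 0.011 over all genes tested. Higher members were led by Slc45a3, Slc16a12, Slc38a4 and Slc9a9, each near 0 in every blood class. Of these, Slc16a12, Slc38a4 and Slc9a9 met the limit for membership only through their lymphatic counts. Each of them, and Slc45a3 too, passed the expression filter only through lymphatic counts. Among lower members with at least 20 CPM in a blood class, Slc52a3, Slc28a2 and Slc1a1 led. Because this contrast averages the logs of 4 blood classes, a member can pass it while 1 blood class is as high as the lymphatic class. Levels per class are therefore given for many members. Where only a fold change is given, the text does not show whether a blood class lay at the lymphatic level.

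Arterial cells differed from the mean of the 2 capillary classes at 24 members (13.1%), 17 higher and 7 lower, against 9.29% of all genes (6.45% higher and 2.85% lower). The median log2 fold change was 0.064 over tested members and 0.00084 over all genes tested. Slc45a4, Slc6a6, Slc5a3 and Slco3a1 were among the higher and Slco2b1 among the lower members. DESeq2 called 6 members higher and 2 lower, and the fit with no replicate block 11 and 4, so these counts depend on the test used.

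Venous cells differed from the mean of the capillary classes at 53 members (28.96%), 32 higher and 21 lower, against 27.9% of all genes. The median log2 fold change was -0.0038 over tested members and -0.013 over all genes tested. Slc4a4, Slco3a1, Slc16a6, Slc10a6 and Slc2a1 were among the higher members, and Slc1a1, Slc26a10 and Slc9a3r2 among the lower ones. Without TMM scaling the split was 26 higher and 32 lower, while the median of all genes moved to -0.18 on the log2 scale.

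Arterial and venous cells differed at 46 members (25.1%), 22 higher in arterial and 24 higher in venous cells, against 22.1% of all genes. The median log2 fold change was 0.13 over tested members and 0.01 over all genes tested. Without scaling the split was 32 and 19, with a median of all genes at 0.15. Plvap-high and Gpihbp1/Aqp1 capillary cells differed at 51 members (27.9%), 32 higher and 19 lower in the Plvap-high class, against 23.5% of all genes. The median log2 fold change was 0.102 over tested members and -0.016 over all genes tested. Without scaling that split was 27 and 26, with a median of all genes at -0.15. No call on a single member described below changed its direction without scaling.

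**Figure D2:**
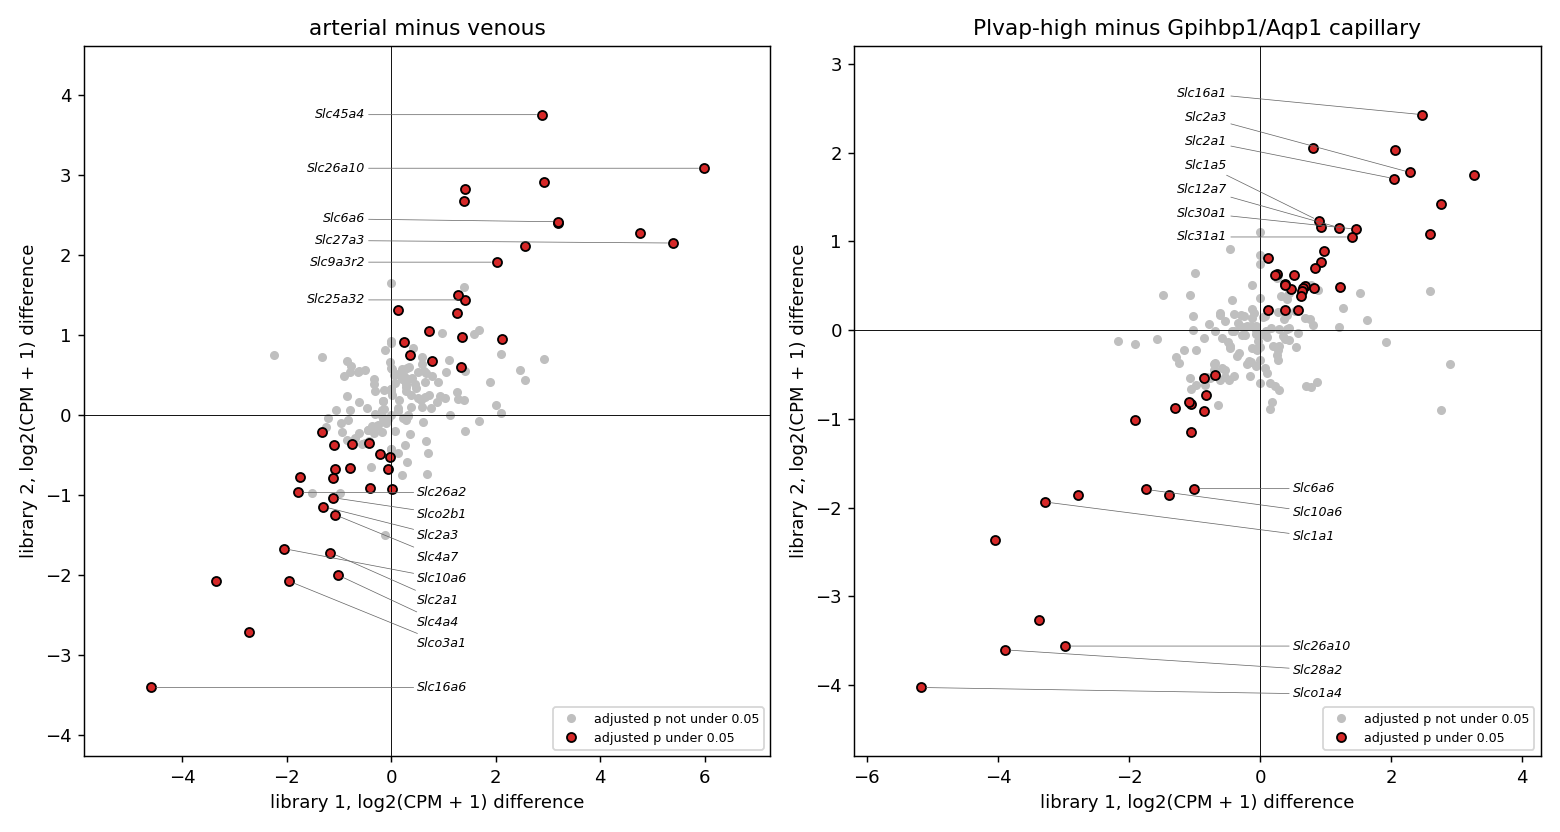
Difference in log2(CPM + 1) in library 1 (horizontal axis) and library 2 (vertical axis) for the 183 tested members, arterial minus venous on the left and Plvap-high minus Gpihbp1/Aqp1 capillary on the right; black-edged points passed an adjusted p under 0.05. Labelled members with the largest differences, such as Slc16a6 and Slc45a4 on the left and Slco1a4 and Slc16a1 on the right, lie on the same side of 0 in both libraries.

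Among the carriers of glucose and other hexoses, 4 of 8 members were tested and 2 of them, Slc2a1 and Slc2a3, differed between classes. Of all genes tested, 56.7% did so, a share near that of the group. Slc2a1 (GLUT1, the main basal glucose transporter of endothelium, chr4:119108711-119137983, plus strand, GRCm38 with GENCODE vM21 genes) measured 14.6 and 16.7 CPM in lymphatic, 104 and 131 in venous, 45.8 and 39.1 in arterial, 64.7 and 70.3 in Plvap-high capillary and 14.9 and 20.8 in Gpihbp1/Aqp1 capillary cells. It was highest in venous cells and next highest in Plvap-high capillary cells in both libraries, with lymphatic and Gpihbp1/Aqp1 cells lowest. The log2 fold change was log2 1.93 ± 0.14 (adjusted p = 9.88e-14) for venous against capillary cells, log2 -1.78 ± 0.17 (adjusted p = 1.07e-10) for arterial against venous cells, log2 1.95 ± 0.18 (adjusted p = 1.17e-10) between the capillary classes and log2 -1.74 ± 0.201 (adjusted p = 3.90e-09) for lymphatic against blood cells. Slc2a3 (GLUT3, a high-affinity glucose transporter) was also highest in venous and Plvap-high cells, by little between these classes in library 2, with 29.6 and 23.5 CPM in venous, 23.7 and 23.3 CPM in Plvap-high, 11.5 and 10.1 CPM in arterial, 7.29 and 7.23 CPM in lymphatic and 4.05 and 6.1 CPM in Gpihbp1/Aqp1 cells. Its difference between the capillary classes was log2 2.15 ± 0.29 (adjusted p = 2.69e-07) and that of venous against capillary cells log2 1.26 ± 0.25 (adjusted p = 9.63e-05). Its lymphatic call (log2 -0.99 ± 0.304, adjusted p = 0.00727) was lost with DESeq2, at an adjusted p of 0.0792. Slc2a8, an intracellular hexose transporter and the third most abundant member of the group, ranged from 3.65 to 14.4 CPM and did not pass the test over the classes (adjusted p = 0.761).

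Lactate and other monocarboxylates leave or enter cells through the Slc16 family, of which 9 of 10 members in the group were tested. Slc16a1 (MCT1, a proton-coupled lactate and pyruvate carrier, chr3:104638668-104658462, plus strand) measured 0 and 11 CPM in lymphatic, 3.7 and 29.3 in venous, 11.5 and 25.2 in arterial, 94.9 and 119 in Plvap-high capillary and 16.2 and 21.4 in Gpihbp1/Aqp1 capillary cells. It was high in Plvap-high capillary cells of both libraries and low elsewhere, and no other class overlapped that one. Plvap-high exceeded Gpihbp1/Aqp1 capillary cells by log2 2.67 ± 0.22 (adjusted p = 1.32e-09). The lower level in lymphatic than in blood cells (log2 -1.9 ± 0.298, adjusted p = 1.05e-05) also passed. Arterial (log2 -1.08 ± 0.23, adjusted p = 0.00189) and venous cells (log2 -0.84 ± 0.24, adjusted p = 0.0114) were lower than capillary cells, but both calls were lost without the replicate block. The arterial one was also lost with DESeq2 (adjusted p = 0.0691), and the venous one when cells passing 2 gates were left out.

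Slc16a3 (MCT4, a lactate exporter of glycolytic cells, chr11:120948480-120960868, plus strand) measured 0 and 6.6 CPM in lymphatic, 22.2 and 36.4 in venous, 21.3 and 22.3 in arterial, 17.3 and 22.2 in Plvap-high capillary and 9.46 and 4.58 in Gpihbp1/Aqp1 capillary cells. Venous cells were highest in both libraries and lymphatic and Gpihbp1/Aqp1 capillary cells lowest. The venous excess over capillary cells was log2 1.8 ± 0.25 (adjusted p = 4.61e-07), the Plvap-high excess over Gpihbp1/Aqp1 cells log2 2.09 ± 0.33 (adjusted p = 4.25e-06) and the lymphatic difference from blood log2 -1.62 ± 0.34 (adjusted p = 1.38e-04). Arterial cells passed against capillary cells (log2 1.06 ± 0.26, adjusted p = 0.0041), but not with DESeq2 (adjusted p = 0.32). Slc2a1, Slc2a3, Slc16a1 and Slc16a3 were thus all lower in Gpihbp1/Aqp1 than in Plvap-high capillary cells, and Slc2a1, Slc2a3 and Slc16a3, without Slc16a1, were highest in venous cells.

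Slc2a1 and Slc16a3 are textbook targets of hypoxia-inducible factors, which bind core letters such as ACGTG. Slc16a1 is not a textbook target and is shown for comparison. The 250 bases upstream of the RefSeq start (GRCm38.p6, plus strand, 5′ to 3′) were searched on both strands for ACGTG only. They are shown for these 3 members with matches in capitals. Other forms of the core were neither searched nor marked. The windows are chr4:119108495-119108744 for Slc2a1, chr3:104638414-104638663 for Slc16a1 and chr11:120948817-120949066 for Slc16a3.
Slc2a1: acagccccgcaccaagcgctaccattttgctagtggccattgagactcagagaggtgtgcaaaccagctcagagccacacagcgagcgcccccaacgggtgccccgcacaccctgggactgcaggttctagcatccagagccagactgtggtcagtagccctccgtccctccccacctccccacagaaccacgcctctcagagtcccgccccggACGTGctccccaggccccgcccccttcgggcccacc
Slc16a1: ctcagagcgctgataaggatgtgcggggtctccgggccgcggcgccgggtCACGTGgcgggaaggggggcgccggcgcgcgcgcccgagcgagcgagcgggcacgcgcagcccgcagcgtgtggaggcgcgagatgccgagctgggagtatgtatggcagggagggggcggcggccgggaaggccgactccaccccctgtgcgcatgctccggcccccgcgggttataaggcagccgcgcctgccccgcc
Slc16a3: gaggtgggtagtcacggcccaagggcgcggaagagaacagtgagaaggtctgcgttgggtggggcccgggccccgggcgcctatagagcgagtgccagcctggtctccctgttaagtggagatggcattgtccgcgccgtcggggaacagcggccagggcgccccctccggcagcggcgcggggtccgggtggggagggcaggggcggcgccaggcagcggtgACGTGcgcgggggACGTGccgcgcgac
Slc2a1 held 1 match, Slc16a1 held 2 that overlap in the palindrome CACGTG, and Slc16a3 held 2 separate ones. The motif lies in 16.6% of all 32851 promoter windows of this length. By gene, 47 of the 168 members with an entry held it in at least 1 window (27.98%), against 18.5% of all 27025 symbols. Those symbols were not limited to expressed genes, as the members were. No share among expressed genes was computed, so the gap cannot be read as an enrichment. A match is a description of these letters and not a binding site, and the 168 members are not independent of each other.

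Other members of the Slc16 family followed other classes. Slc16a6 (MCT7) measured 3.65 and 4.71 CPM in lymphatic, 62.9 and 31 in venous, 1.64 and 2.01 in arterial, 1.44 and 2.5 in Plvap-high capillary and 39.2 and 17 in Gpihbp1/Aqp1 capillary cells. It was high in venous and Gpihbp1/Aqp1 capillary cells and near the detection floor in arterial and Plvap-high cells. The difference was log2 -4.3 ± 0.404 (adjusted p = 1.14e-10) for arterial against venous cells. It was log2 2.52 ± 0.26 (adjusted p = 4.65e-10) for venous against capillary cells and log2 -2.97 ± 0.34 (adjusted p = 1.41e-08) between the capillary classes. Slc16a13, a family member whose substrates are less well defined, was lower in lymphatic cells, with 10.9 and 6.91 CPM against 15.3 to 43.9 CPM in blood classes (log2 -1.83 ± 0.27, adjusted p = 7.04e-07).

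Slc16a12 and Slc16a9 were higher in lymphatic cells. Slc16a12 (MCT12, a creatine transporter, chr19:34668403-34747289, minus strand) measured 65.6 and 35.2 CPM in lymphatic cells and at most 0.894 CPM in any blood class, a difference of log2 7.99 ± 0.48 (adjusted p = 9.40e-16). DESeq2 gave it an adjusted p of 0.096. With 130 of its 145 UMIs in lymphatic cells, Slc16a12 met the limit for membership only through them, so its values are a description. Slc16a9 (MCT9, linked to carnitine and creatine transport) measured 54.7 and 28.6 CPM in lymphatic, 18.9 and 5.85 CPM in Gpihbp1/Aqp1 capillary and 9.26 and 5.11 CPM in venous cells, and 0 and 0.447 CPM in arterial cells (log2 3.47 ± 0.301, adjusted p = 4.38e-12 for lymphatic against blood). Slc16a7 (MCT2), only 3 UMIs above the limit for membership, had 41 of its 53 UMIs in lymphatic cells and 3 in all blood cells. It met the limit only through its lymphatic counts, so this is a description.

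**Figure D3:**
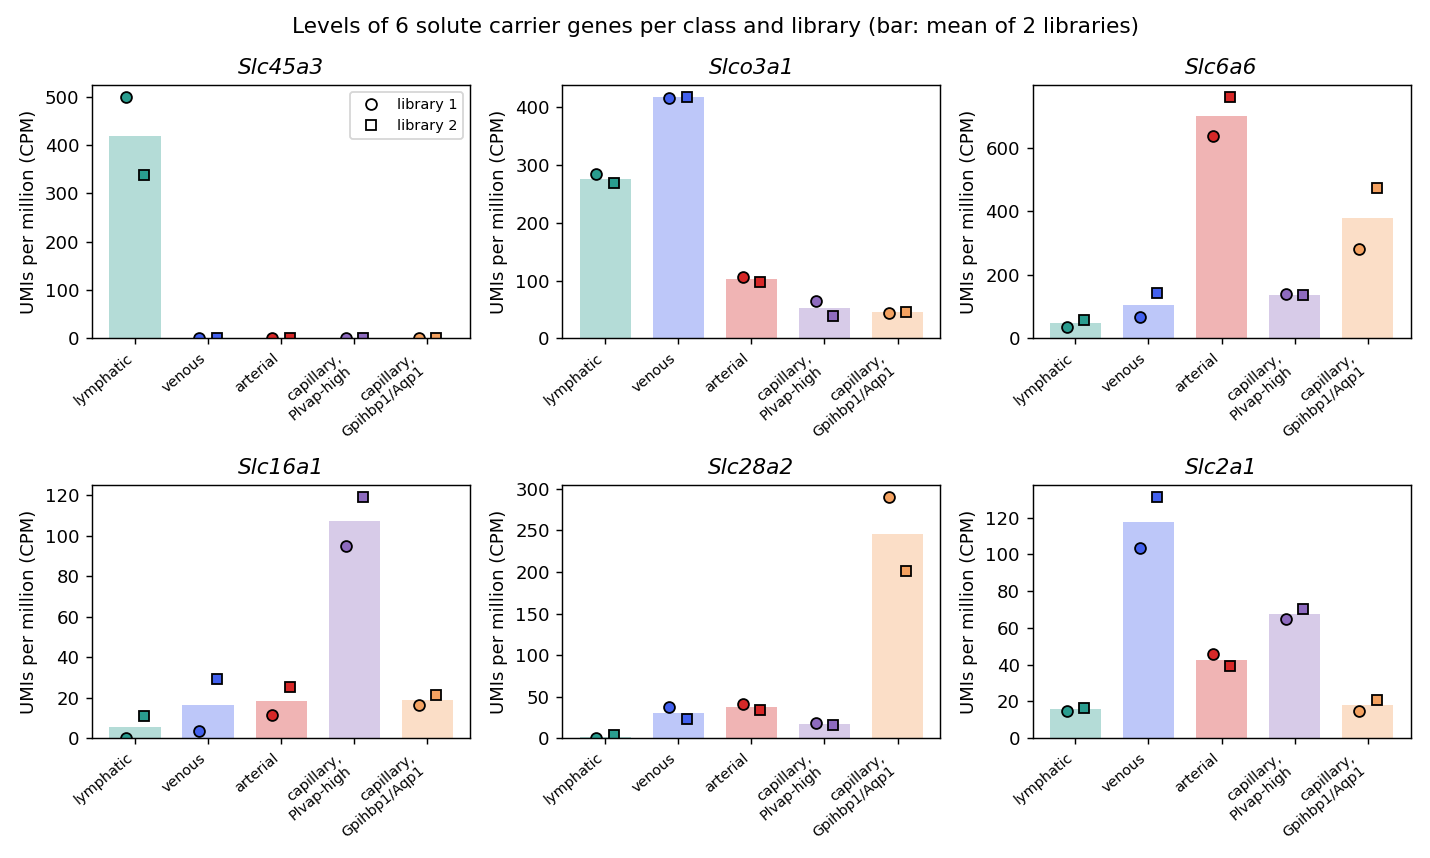
CPM in the 5 classes for Slc45a3, Slco3a1, Slc6a6, Slc16a1, Slc28a2 and Slc2a1 on linear axes that start at 0; circles are library 1, squares library 2 and bars the mean of both. Each gene has the same highest class in both libraries, and Slc45a3 lies between 0 and 1.53 CPM in every blood class.

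Amino acid transporters gave 25 members, 19 of them tested. Against blood, lymphatic cells were higher at 3 and lower at 5 of the 19, with 11 not passing; of all genes tested, 23.6% were higher and 23.7% lower in this comparison, a share near that of the group. Slc3a2 (the CD98 heavy chain, which carries several light-chain amino acid exchangers to the membrane) measured 109 and 192 CPM in lymphatic, 317 and 434 in venous, 417 and 599 in arterial, 429 and 566 in Plvap-high capillary and 278 and 435 in Gpihbp1/Aqp1 capillary cells. Lymphatic cells were lowest in both libraries (log2 -1.54 ± 0.12, adjusted p = 2.94e-13), and Plvap-high exceeded Gpihbp1/Aqp1 capillary cells (log2 0.61 ± 0.12, adjusted p = 1.10e-04), a call lost without the replicate block. Slc1a5 (ASCT2, a glutamine and neutral amino acid exchanger) measured 14.6 and 17.6 CPM in lymphatic, 135 and 145 in venous, 62.2 and 83.6 in arterial, 91.3 and 121 in Plvap-high capillary and 48.7 and 50.8 in Gpihbp1/Aqp1 capillary cells. It was highest in venous cells and lowest in lymphatic cells in both libraries. The difference was log2 1.1 ± 0.13 (adjusted p = 6.79e-09) for venous against capillary cells, log2 1.3 ± 0.15 (adjusted p = 1.10e-08) for Plvap-high against Gpihbp1/Aqp1 cells and log2 -2.49 ± 0.19 (adjusted p = 9.09e-14) for lymphatic against blood cells. Slc38a2 (SNAT2, a sodium-coupled neutral amino acid carrier induced by amino acid shortage) had the most UMIs of the group and was lower in lymphatic cells, at 448 and 384 CPM against 496 to 719 CPM in blood classes (log2 -0.73 ± 0.103, adjusted p = 2.63e-07).

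Slc1a1 (EAAT3, a high-affinity glutamate and cysteine carrier, chr19:28835049-28913960, plus strand) measured 0 and 1.57 CPM in lymphatic, 0 and 3.06 in venous, 26.2 and 18.5 in arterial, 13.7 and 21.3 in Plvap-high capillary and 142 and 84.4 in Gpihbp1/Aqp1 capillary cells. Gpihbp1/Aqp1 capillary cells were above every other class in both libraries, and lymphatic and venous cells were near the detection floor. The difference between Plvap-high and Gpihbp1/Aqp1 cells was log2 -2.2 ± 0.22 (adjusted p = 4.10e-08), and venous cells were lower than the mean of the capillary classes (log2 -3.9 ± 0.42, adjusted p = 7.39e-08). Arterial cells lay below the Gpihbp1/Aqp1 class and close to the Plvap-high class, and their call against the capillary mean (log2 -1.12 ± 0.24, adjusted p = 0.00239) was lost with DESeq2 (adjusted p = 0.388).

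The amino acid carriers higher in lymphatic cells included Slc38a4 and Slc6a9. Slc38a4 (SNAT4, chr15:96994820-97055956, minus strand) measured 65.6 and 44.3 CPM in lymphatic cells and at most 0.508 CPM in a blood class (log2 7.84 ± 0.41, adjusted p = 1.14e-17). With 159 of its 168 UMIs in lymphatic cells, it met the limit for membership only through them, so its values are a description. Slc6a9 (GlyT1, a glycine transporter) measured 21.9 and 25.1 CPM in lymphatic cells and at most 2.46 CPM elsewhere (log2 4.21 ± 0.39, adjusted p = 1.99e-11). Lymphatic cells held 86 of its 139 UMIs. It passed the expression filter only through them, so its values are a description too.

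Carriers of taurine and myo-inositol, both osmolytes, were highest in arterial cells. Slc6a6 (TauT, the taurine transporter, chr6:91684053-91759066, plus strand) measured 36.5 and 58.5 CPM in lymphatic, 68.5 and 142 in venous, 638 and 760.2 in arterial, 139 and 137 in Plvap-high capillary and 282 and 474 in Gpihbp1/Aqp1 capillary cells. Arterial cells were highest and Gpihbp1/Aqp1 capillary cells second in both libraries, and lymphatic cells lowest. The difference was log2 1.65 ± 0.12 (adjusted p = 4.51e-10) for arterial against capillary. It was log2 2.48 ± 0.17 (adjusted p = 2.35e-11) for arterial against venous, log2 -1.38 ± 0.15 (adjusted p = 1.62e-07) for Plvap-high against Gpihbp1/Aqp1 and log2 -2.42 ± 0.18 (adjusted p = 3.98e-11) for lymphatic against blood cells. Slc5a3 (SMIT1, the sodium-coupled myo-inositol carrier, which like Slc6a6 is induced by high osmolarity) measured 32.8 and 27.7 CPM in lymphatic, 53.7 and 56.5 in venous, 236 and 110.2 in arterial, 53.2 and 54.7 in Plvap-high capillary and 58.1 and 46.3 in Gpihbp1/Aqp1 capillary cells. It too was highest in arterial cells in both libraries, although its arterial level was higher in library 1 than in library 2. Arterial exceeded capillary cells by log2 1.48 ± 0.18 (adjusted p = 1.94e-05) and venous cells by log2 1.18 ± 0.23 (adjusted p = 0.001). Slc6a8 (the creatine transporter) was lower in lymphatic cells, at 7.29 and 10.4 CPM, than in blood cells (log2 -1.32 ± 0.27, adjusted p = 8.84e-05).

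Nucleoside and nucleobase carriers gave 4 members, all tested. Slc28a2 (CNT2, a sodium-coupled purine nucleoside carrier, chr2:122426477-122461137, plus strand) measured 0 and 3.46 CPM in lymphatic, 37 and 23.2 in venous, 40.9 and 33.5 in arterial, 18.7 and 15.6 in Plvap-high capillary and 291 and 201 in Gpihbp1/Aqp1 capillary cells. Gpihbp1/Aqp1 capillary cells were far above all other classes, and at most 11 UMIs were counted in lymphatic cells of a library. The difference between Plvap-high and Gpihbp1/Aqp1 cells was log2 -3.62 ± 0.15 (adjusted p = 1.59e-19). A UMI was found in 57.1 and 45.02% of Gpihbp1/Aqp1 cells (median 2999 and 3274 UMIs per cell) against 5.54 and 5.89% of Plvap-high cells (median 3688 and 4166) and at most 1.03% of lymphatic cells. Lymphatic cells were lower than blood cells (log2 -3.76 ± 0.31, adjusted p = 1.01e-12). A row for a neighbouring near-copy, Gm14085, exists in the annotation, so reads may have been split between the copies and the level of Slc28a2 is uncertain. Slc43a3 (a purine nucleobase carrier) measured 160.4 and 159.98 CPM in lymphatic, 509 and 465 in venous, 439 and 331 in arterial, 486 and 346 in Plvap-high capillary and 372 and 295 in Gpihbp1/Aqp1 capillary cells and was lower in lymphatic cells than in any blood class (log2 -1.32 ± 0.12, adjusted p = 1.39e-11). Slc29a1 (ENT1, the equilibrative nucleoside transporter that clears adenosine) went the other way, at 94.8 and 94.6 CPM in lymphatic cells against 35.2 to 69.7 CPM in blood classes (log2 0.92 ± 0.13, adjusted p = 3.09e-07). Slc29a1, a facilitative carrier, and Slc28a2, a concentrative one, therefore had their highest levels in different vessels.

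Organic anion, organic cation and steroid carriers gave 17 members, 13 of them tested. Between the capillary classes, 5 of the 13 were lower and none higher in Plvap-high cells, while 8 did not pass. Of all genes tested, 10.9% were lower and 12.6% higher in this comparison. Slco3a1 (OATP3A1, a carrier of prostaglandins, thyroxine and other organic anions, chr7:74275419-74554780, minus strand) measured 284 and 268 CPM in lymphatic, 417 and 417 in venous, 106 and 98.1 in arterial, 65.4 and 39.5 in Plvap-high capillary and 44.6 and 45.3 in Gpihbp1/Aqp1 capillary cells. Venous cells were highest, lymphatic cells second, and both capillary classes lowest, with no overlap between venous, lymphatic and the other classes. The difference was log2 3.34 ± 0.12 (adjusted p = 2.22e-22) for venous against capillary. It was log2 -2.18 ± 0.14 (adjusted p = 1.17e-14) for arterial against venous, log2 1.16 ± 0.14 (adjusted p = 8.16e-08) for arterial against capillary and log2 1.4 ± 0.11 (adjusted p = 6.46e-13) for lymphatic against blood cells. Slc10a6 (SOAT, a carrier of sulphated steroids) measured 69.3 and 57.2 CPM in lymphatic, 139 and 91.3 in venous, 32.7 and 27.9 in arterial, 18.7 and 11.5 in Plvap-high capillary and 64.9 and 42.5 in Gpihbp1/Aqp1 capillary cells. It was highest in venous cells and lowest in Plvap-high cells in both libraries (log2 2.2 ± 0.14, adjusted p = 4.09e-15 for venous against capillary and log2 -1.73 ± 0.19, adjusted p = 2.87e-09 for Plvap-high against Gpihbp1/Aqp1 cells).

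Slco2b1 (OATP2B1, a broad organic anion carrier) measured 65.6 and 74.2 CPM in lymphatic, 99.97 and 68.4 in venous, 45.8 and 32.8 in arterial, 78.4 and 52 in Plvap-high capillary and 164 and 116 in Gpihbp1/Aqp1 capillary cells. Gpihbp1/Aqp1 capillary cells were highest and arterial cells lowest in both libraries. On the log2 scale the fold change was log2 -1.24 ± 0.15 (adjusted p = 1.04e-07) for arterial against capillary, log2 -1.22 ± 0.18 (adjusted p = 2.06e-06) for arterial against venous and log2 -0.996 ± 0.14 (adjusted p = 5.99e-07) for Plvap-high against Gpihbp1/Aqp1 cells. Slco1a4 (OATP1A4, known from the blood-brain barrier, chr6:141805440-141856199, minus strand) measured 35.1 and 23.1 CPM in Gpihbp1/Aqp1 capillary cells, 4.91 and 6.26 CPM in arterial cells and at most 0.681 CPM in the other classes (log2 -5.66 ± 0.504, adjusted p = 3.58e-11 for Plvap-high against Gpihbp1/Aqp1). It had 159 UMIs in all, of which 117 were in Gpihbp1/Aqp1 capillary cells. It met the limit for membership only through that class, so its values are a description. DESeq2 gave its arterial excess over venous cells an adjusted p of 0.0631 and its lower lymphatic level 0.0762, so both calls were lost. Slc22a23, an orphan of the organic ion family, was high in 2 classes, lymphatic (40.1 and 21.4 CPM) and Gpihbp1/Aqp1 capillary (24.3 and 13.2 CPM), and reached at most 4.91 CPM in the others (log2 3.03 ± 0.33, adjusted p = 7.77e-10 for lymphatic against blood and log2 -4.39 ± 0.49, adjusted p = 6.90e-09 for Plvap-high against Gpihbp1/Aqp1 cells).

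Carriers of sodium, protons, chloride and bicarbonate made up 27 members, 23 tested. In lymphatic cells 6 were higher and 8 lower than in blood cells, and in venous cells 7 were higher and 3 lower than in capillary cells. Over all genes tested these shares were 23.6% higher and 23.7% lower for lymphatic against blood and 15.8% higher and 12.1% lower for venous against capillary cells. Slc12a7 (KCC4, a potassium-chloride cotransporter, chr13:73733094-73816754, plus strand) measured 51 and 70.1 CPM in lymphatic, 370.3 and 319 in venous, 277 and 249.6 in arterial, 301 and 246 in Plvap-high capillary and 129.7 and 110.1 in Gpihbp1/Aqp1 capillary cells. It was highest in venous cells and lowest in lymphatic cells in both libraries. Fold changes were log2 -1.81 ± 0.14 (adjusted p = 1.03e-13) for lymphatic against blood, log2 1.1 ± 0.11 (adjusted p = 1.60e-10) for venous against capillary and log2 1.32 ± 0.13 (adjusted p = 2.83e-10) for Plvap-high against Gpihbp1/Aqp1 cells. Slc12a2 (NKCC1, the sodium-potassium-chloride cotransporter) was lower in lymphatic cells too (log2 -1.66 ± 0.21, adjusted p = 2.69e-08). The arterial excess of Slc12a2 over venous cells (log2 0.53 ± 0.19, adjusted p = 0.044) was lost in 5 alternatives, including the one without cells rich in markers of other cell types.

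The bicarbonate cotransporters Slc4a4 and Slc4a7 were highest in venous cells. Slc4a4 (NBCe1, an electrogenic sodium bicarbonate cotransporter, chr5:88886818-89239653, plus strand) measured 0 and 2.83 CPM in lymphatic, 57.4 and 31.7 in venous, 27.8 and 7.15 in arterial, 0 and 3.07 in Plvap-high capillary and 0 and 1.27 in Gpihbp1/Aqp1 capillary cells. Venous cells were highest and arterial cells second in both libraries, and capillary and lymphatic cells lay near the detection floor. Venous exceeded capillary cells by log2 4.56 ± 0.505 (adjusted p = 7.22e-06), while the calls of arterial cells against capillary (log2 2.64 ± 0.63, adjusted p = 0.015) and venous cells (log2 -1.92 ± 0.49, adjusted p = 0.0109) were lost with DESeq2 (adjusted p = 0.103 and 0.799). Slc4a7 (NBCn1, an electroneutral relative) measured 90.7 and 63 CPM in venous cells against 25.9 to 42.6 CPM in arterial and capillary classes (log2 1.29 ± 0.16, adjusted p = 5.69e-08). Slc26a2, the sulphate carrier DTDST, measured 104 and 70.1 CPM in venous cells against 29.5 to 47.3 CPM in the other blood classes (log2 1.23 ± 0.16, adjusted p = 9.24e-08).

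Slc26a10, a little-studied member of the anion exchanger family (chr10:127171393-127180645, minus strand), measured 0 and 3.14 CPM in lymphatic, 0 and 4.77 in venous, 62.2 and 47.8 in arterial, 10.8 and 8.54 in Plvap-high capillary and 91.9 and 112 in Gpihbp1/Aqp1 capillary cells. Gpihbp1/Aqp1 capillary cells were highest, arterial cells second, and venous and lymphatic cells lowest in both libraries. The difference was log2 -3.42 ± 0.21 (adjusted p = 3.64e-15) between the capillary classes and log2 3.52 ± 0.35 (adjusted p = 5.47e-10) for arterial against venous cells. The lower lymphatic level (log2 -2.93 ± 0.41, adjusted p = 2.16e-07) was lost when cells passing 2 gates were left out. Lymphatic cells held Slc9a9 (NHE9, an endosomal sodium-proton exchanger) at 51 and 33.6 CPM against at most 0.681 CPM in blood classes (log2 6.72 ± 0.44, adjusted p = 4.95e-15). Slc4a11, a borate, ammonia and proton carrier of the bicarbonate family, measured 94.8 and 28.6 CPM in lymphatic cells and at most 5.41 CPM elsewhere (log2 4.72 ± 0.32, adjusted p = 5.57e-15), with the level of library 1 resting on 26 UMIs. Lymphatic cells held 121 of the 143 UMIs of Slc9a9 and 117 of the 151 of Slc4a11. Both met the limit for membership only through these counts, so their values are a description. Slc8b1 (NCLX, the mitochondrial sodium-calcium exchanger) measured 80.2 and 56.3 CPM in lymphatic cells against 12.2 to 31.1 CPM in blood classes (log2 1.6 ± 0.19, adjusted p = 4.45e-09).

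**Figure D4:**
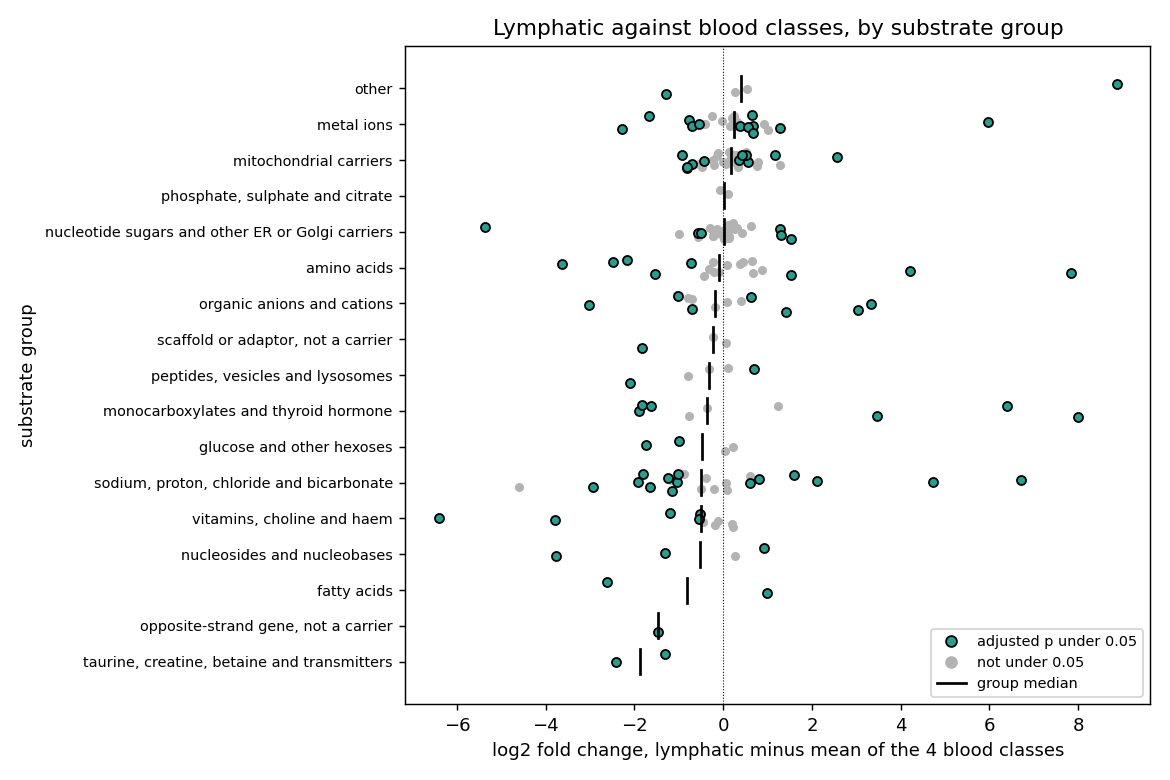
Log2 fold change of lymphatic against the mean of the 4 blood classes for the 183 tested members, by substrate group; green points passed an adjusted p under 0.05, grey points did not, and black bars are group medians. Members of 1 group lie on both sides of 0, with 8.87 for Slc45a3 and -3.79 for Slc52a3.

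Metal carriers gave 25 members, 22 of them tested, with 7 higher and 5 lower in lymphatic than in blood cells, where 47.3% of all genes tested were called in either direction. Slc30a1 (ZnT1, the zinc exporter of the plasma membrane, chr1:191906767-191913247, plus strand) measured 36.5 and 37.1 CPM in lymphatic, 79.6 and 90.2 in venous, 193 and 219 in arterial, 339 and 304 in Plvap-high capillary and 122 and 138 in Gpihbp1/Aqp1 capillary cells. Plvap-high capillary cells were highest and lymphatic cells lowest in both libraries. Fold changes were log2 1.4 ± 0.12 (adjusted p = 2.83e-11) for Plvap-high against Gpihbp1/Aqp1, log2 1.12 ± 0.14 (adjusted p = 9.73e-08) for arterial against venous and log2 -2.27 ± 0.15 (adjusted p = 5.89e-15) for lymphatic against blood cells. Since this gene is a textbook target of the zinc-sensing factor MTF1, the 250 bases upstream of its RefSeq start (GRCm38.p6, chr1:191906531-191906780, plus strand, 5′ to 3′) are shown with matches on either strand to the metal response core, TGCACNC or TGCGCNC, in capitals.
Slc30a1: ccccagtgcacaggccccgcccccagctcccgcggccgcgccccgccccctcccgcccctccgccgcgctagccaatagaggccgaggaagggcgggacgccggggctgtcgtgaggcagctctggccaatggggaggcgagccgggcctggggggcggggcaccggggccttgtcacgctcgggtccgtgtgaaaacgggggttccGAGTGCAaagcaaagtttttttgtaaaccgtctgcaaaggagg
It held 1 match, on the minus strand, and 21.4% of all promoter windows of this length held at least 1.

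Zinc importers of the Slc39 family differed from each other. Slc39a1 (ZIP1) was higher in lymphatic cells, at 255 and 217 CPM against 124 to 197 CPM in blood classes (log2 0.38 ± 0.11, adjusted p = 0.00289), a call lost when only lymphatic and summed blood cells were fitted. Slc39a10 (ZIP10) was lower in lymphatic cells, at 29.2 and 33 CPM, than in blood classes, at 53.7 to 122 CPM (log2 -1.67 ± 0.17, adjusted p = 1.81e-10). Slc39a14 (ZIP14, which carries zinc, iron and manganese) was lowest in lymphatic and venous cells, and venous were below capillary cells (log2 -1.45 ± 0.21, adjusted p = 8.11e-07). Slc31a1 (CTR1, the copper importer) was higher in Plvap-high than in Gpihbp1/Aqp1 capillary cells (37.4 and 30.5 CPM against 13.5 and 14.2 CPM; log2 1.34 ± 0.25, adjusted p = 5.77e-05). Slc40a1 (ferroportin, the only known iron exporter), with 53 UMIs, was not tested, and measured 3.65 and 6.29 CPM in lymphatic cells and at most 1.64 CPM in blood classes.

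Vitamin, choline and haem carriers gave 11 members, of which 10 were tested, and 5 of these were lower and none higher in lymphatic than in blood cells. Over all genes tested, 23.7% were lower and 23.6% higher. Slc52a3 (a riboflavin transporter, chr2:151996511-152009258, plus strand) measured 0 and 1.89 CPM in lymphatic, 51.8 and 39.8 in venous, 14.7 and 22.8 in arterial, 26.6 and 21.4 in Plvap-high capillary and 10.8 and 15 in Gpihbp1/Aqp1 capillary cells. Venous cells were highest and lymphatic cells nearly without counts in both libraries (log2 -3.79 ± 0.41, adjusted p = 1.13e-09 for lymphatic against blood and log2 1.42 ± 0.21, adjusted p = 1.20e-06 for venous against capillary cells). Slc44a2, a choline transporter-like protein, measured 58.3 and 83.3 CPM in lymphatic cells against 126 to 218 CPM in blood classes (log2 -1.21 ± 0.14, adjusted p = 2.29e-09). Slc23a2 (SVCT2, a vitamin C carrier) was higher in Plvap-high than in Gpihbp1/Aqp1 capillary cells, at 48.9 and 46.3 CPM against 27 and 28.2 CPM (log2 0.88 ± 0.18, adjusted p = 2.12e-04). Slc48a1 (HRG1, a haem carrier of endosomes and lysosomes) was lower in lymphatic cells (log2 -0.54 ± 0.18, adjusted p = 0.0126), a call lost with DESeq2 (adjusted p = 0.072).

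Of the fatty acid transport proteins, 2 of 3 members were tested. Slc27a3 (FATP3, which acts as an acyl-CoA synthetase, chr3:90385239-90389938, minus strand) measured 0 and 4.09 CPM in lymphatic, 0 and 9.87 in venous, 40.9 and 47.1 in arterial, 34.5 and 31 in Plvap-high capillary and 17.6 and 17.8 in Gpihbp1/Aqp1 capillary cells. It was highest in arterial and Plvap-high capillary cells and lowest in lymphatic and venous cells in both libraries, with log2 2.34 ± 0.33 (adjusted p = 8.21e-07) for arterial against venous and log2 -2.61 ± 0.39 (adjusted p = 9.89e-07) for lymphatic against blood cells. Its arterial excess over capillary cells (log2 0.96 ± 0.21, adjusted p = 0.00128) and the difference between capillary classes (log2 0.99 ± 0.26, adjusted p = 0.00355) were lost with DESeq2 (adjusted p = 0.331 and 0.182). Slc27a4 (FATP4) measured 3.65 and 17.3 CPM in lymphatic, 13 and 7.83 in venous, 4.91 and 6.93 in arterial, 7.91 and 7.1 in Plvap-high capillary and 1.35 and 7.88 in Gpihbp1/Aqp1 capillary cells: it passed as higher in lymphatic cells (log2 0.98 ± 0.32, adjusted p = 0.0118), but library 1 alone gave a log2 ratio of -0.47 and DESeq2 an adjusted p of 0.417.

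The member with the largest log2 fold change in lymphatic against blood cells was Slc45a3 (prostein, of the SLC45 sugar carrier family, chr1:131962967-131982969, plus strand), which measured 499 and 339 CPM in lymphatic, 0 and 0.341 in venous, 0 and 0.67 in arterial, 0 and 0.96 in Plvap-high capillary and 1.35 and 1.53 in Gpihbp1/Aqp1 capillary cells. Lymphatic cells stood far above every blood class in both libraries, by log2 8.87 ± 0.18 (adjusted p = 2.90e-30). They held 1214 of the 1270 UMIs of Slc45a3. Near 0 in the blood classes, Slc45a3 passed the expression filter only through its lymphatic counts, so its values are a description. A UMI was found in 63.0 and 54.7% of lymphatic cells, and in 53.5 and 48.8% after each cell was thinned to 2000 UMIs. The highest share of cells with a Slc45a3 UMI in a blood class was 0.554%, although blood cells had more UMIs per cell. Its relative Slc45a4 (chr15:73577424-73645762, minus strand) was arterial and measured 18.2 and 28.3 CPM in lymphatic, 11.1 and 5.45 in venous, 88.4 and 85.8 in arterial, 14.4 and 29.95 in Plvap-high capillary and 2.7 and 6.61 in Gpihbp1/Aqp1 capillary cells. Arterial cells were highest in both libraries and Gpihbp1/Aqp1 capillary cells lowest in library 1, with log2 2.84 ± 0.201 (adjusted p = 3.37e-13) for arterial against capillary and log2 3.64 ± 0.31 (adjusted p = 1.16e-11) for arterial against venous cells.

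Mitochondrial carriers of the Slc25 family were the largest group, with 38 members and 35 tested. Lymphatic cells were higher at 6 and lower at 5 of the 35, with 24 not passing, against 47.3% of all genes tested called in either direction. Slc25a3 (the phosphate carrier) measured 558 and 408 CPM in lymphatic, 326 and 374 in venous, 304 and 348 in arterial, 337 and 394 in Plvap-high capillary and 242 and 285 in Gpihbp1/Aqp1 capillary cells. Slc25a4 (ANT1, an ADP/ATP carrier) stayed within 254 to 332 CPM in all classes. It passed for venous against capillary cells and between the capillary classes. Both calls were lost with DESeq2, without scaling, without the replicate block and with stricter gates. Slc25a5 (ANT2, another ADP/ATP carrier) measured 128 and 165 CPM in lymphatic, 152 and 224 in venous, 211 and 283 in arterial, 251 and 358 in Plvap-high capillary and 193 and 252 in Gpihbp1/Aqp1 capillary cells. Slc25a5 was lower in lymphatic cells (log2 -0.81 ± 0.11, adjusted p = 2.64e-07) and Slc25a3 was higher there (log2 0.36 ± 0.11, adjusted p = 0.00629), a call lost when only lymphatic and summed blood cells were fitted. The mitochondrial share of all UMIs was higher in lymphatic cells of library 2 than in any other class, and its part in these differences was not tested. Processed copies of Slc25a5 exist in the mouse genome, so its level is uncertain.

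Larger differences were found in less abundant members. Slc25a29, a basic amino acid carrier, measured 25.5 and 31.4 CPM in lymphatic cells against 2.80 to 8.63 CPM in blood classes (log2 2.56 ± 0.26, adjusted p = 1.88e-10). Slc25a32, a folate and flavin carrier, was higher in Gpihbp1/Aqp1 than in Plvap-high capillary cells (63.5 and 39.2 CPM against 25.2 and 20.9 CPM; log2 -0.902 ± 0.204, adjusted p = 8.22e-04) and lowest in venous cells, at 14.8 and 12.3 CPM (log2 -1.12 ± 0.25, adjusted p = 6.88e-04).

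Carriers of the endoplasmic reticulum and Golgi apparatus gave 27 members, 25 tested, with 3 higher, 3 lower and 19 not passing in lymphatic against blood cells, against 47.3% of all genes tested called. Slc50a1 (SWEET1, a sugar carrier) measured 76.6 and 113 CPM in lymphatic, 74.1 and 85.5 in venous, 192 and 168 in arterial, 127 and 139 in Plvap-high capillary and 205 and 198 in Gpihbp1/Aqp1 capillary cells. It was lowest in venous cells and highest in Gpihbp1/Aqp1 capillary and arterial cells, with log2 0.94 ± 0.15 (adjusted p = 9.11e-06) for arterial against venous and log2 -0.83 ± 0.14 (adjusted p = 7.30e-06) for venous against capillary cells. Slc35b1 (an ATP/ADP exchanger of the endoplasmic reticulum) was lower in lymphatic cells (log2 -0.57 ± 0.15, adjusted p = 0.0023), while Slc35a3 (the UDP-N-acetylglucosamine carrier of the Golgi) ranged from 20.4 to 52.7 CPM and did not pass the test over the classes (adjusted p = 0.329). Slc35e4, an orphan, was higher in venous (log2 1.11 ± 0.21, adjusted p = 6.05e-05) and arterial cells (log2 0.89 ± 0.196, adjusted p = 0.00144) than in capillary cells, the arterial call being lost with DESeq2 (adjusted p = 0.0723).

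Peptide, lysosomal and phosphate carriers were few. Slc15a2 (PEPT2, a high-affinity peptide carrier) measured 29.2 and 5.03 CPM in lymphatic, 35.2 and 41.2 in venous, 26.2 and 21.5 in arterial, 43.9 and 26.2 in Plvap-high capillary and 59.5 and 26.4 in Gpihbp1/Aqp1 capillary cells, and its lower lymphatic level (log2 -2.09 ± 0.35, adjusted p = 2.24e-05) came from library 2, where 16 UMIs were counted in lymphatic cells, whereas the lymphatic level of library 1, from 8 UMIs, lay within the range of the blood classes. Slc15a3, a lysosomal peptide and histidine carrier, was higher in venous than in capillary cells, at 25.9 and 15 CPM (log2 1.34 ± 0.29, adjusted p = 3.93e-04). Slc17a5 (sialin, which exports sialic acid from lysosomes) ranged from 11.2 to 27 CPM (adjusted p over the classes = 0.797). Slc20a1 (PiT1, a sodium-phosphate carrier) was lower in venous than in capillary cells (log2 -0.61 ± 0.19, adjusted p = 0.0123), a call lost with DESeq2 (adjusted p = 0.328), and Slc20a2 (PiT2) was higher (log2 0.86 ± 0.28, adjusted p = 0.0175), also lost with DESeq2 (adjusted p = 0.176).

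The non-carriers that share the symbol included the member with the most UMIs of all, Slc9a3r2 (NHERF2, a PDZ scaffold that holds sodium-proton exchangers at the membrane, chr17:24639286-24650327, minus strand), with 572 and 561 CPM in lymphatic, 213 and 266 in venous, 866 and 1002 in arterial, 696 and 786 in Plvap-high capillary and 716 and 920.1 in Gpihbp1/Aqp1 capillary cells. Venous cells were lowest and arterial cells highest in both libraries (log2 -1.52 ± 0.12, adjusted p = 3.31e-13 for venous against capillary and log2 1.81 ± 0.13, adjusted p = 9.72e-14 for arterial against venous cells). Its relative Slc9a3r1 (NHERF1) was highest in Plvap-high capillary cells (48.9 and 41.5 CPM against 24.3 and 21.9 CPM in Gpihbp1/Aqp1 cells; log2 1.1 ± 0.21, adjusted p = 8.88e-05) and lowest in lymphatic cells (log2 -1.83 ± 0.26, adjusted p = 3.14e-07). Slc4a1ap did not pass the test over the classes (adjusted p = 0.304). Slc7a6os was lower in lymphatic cells (log2 -1.48 ± 0.24, adjusted p = 3.88e-06), and Slc7a6 next to it, named only for its place, lay between 0 and 9.46 CPM (adjusted p over the classes = 0.301).

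Carriers without an Slc symbol and proteins that work with carriers were taken from 2 lists for comparison. Of 19 such carriers, 16 were tested, and lymphatic cells were higher at 4 and lower at 4, near the 47.3% of all genes tested that were called. Ucp2, an uncoupling protein of the mitochondrial carrier family, measured 463 and 384 CPM in lymphatic, 11.1 and 19.7 in venous, 103 and 81.3 in arterial, 33.1 and 29.3 in Plvap-high capillary and 85.1 and 65.3 in Gpihbp1/Aqp1 capillary cells and was highest in lymphatic cells (log2 3.13 ± 0.11, adjusted p = 1.61e-23) and lowest in venous cells (log2 -1.15 ± 0.202, adjusted p = 2.17e-05 against capillary cells). Spns2, which exports sphingosine-1-phosphate from endothelium, was highest in lymphatic cells, at 357 and 283 CPM (log2 0.49 ± 0.105, adjusted p = 1.87e-04). Flvcr2, a choline carrier of the brain endothelium, measured 23 and 11.7 CPM in Gpihbp1/Aqp1 capillary cells against 0 and 0.096 CPM in Plvap-high cells (log2 -6.61 ± 0.75, adjusted p = 8.66e-09). It reached at most 3.27 CPM outside Gpihbp1/Aqp1 capillary cells and passed the expression filter only through that class. Its values, like those of Slco1a4, are therefore a description.

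Of 13 partner genes, 11 were tested, and 5 were lower and 3 higher in lymphatic than in blood cells, against 23.7% lower and 23.6% higher of all genes tested. Bsg (basigin, which Slc16a1 and Slc16a3 need to reach the membrane) measured 434 and 429 CPM in lymphatic, 572 and 556 in venous, 540.2 and 606 in arterial, 369.6 and 312 in Plvap-high capillary and 512 and 512 in Gpihbp1/Aqp1 capillary cells, and was lower in Plvap-high than in Gpihbp1/Aqp1 capillary cells (log2 -0.48 ± 0.12, adjusted p = 0.00216), opposite in direction to Slc16a1 and Slc16a3. Atp1b3, a beta subunit of the sodium pump that maintains the gradient sodium-coupled carriers use, was highest in venous cells, at 526 and 403 CPM (log2 1.72 ± 0.11, adjusted p = 2.16e-15 against capillary cells). Arrdc3, an arrestin-domain protein related to the regulator of GLUT1 endocytosis, was higher in Plvap-high than in Gpihbp1/Aqp1 capillary cells (log2 2.17 ± 0.18, adjusted p = 4.42e-12), as were Slc2a1 and Slc2a3. Stra6, the retinol uptake receptor, measured 7.29 and 13.2 CPM in lymphatic cells and 0 in every blood class of both libraries.

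**Figure D5:**
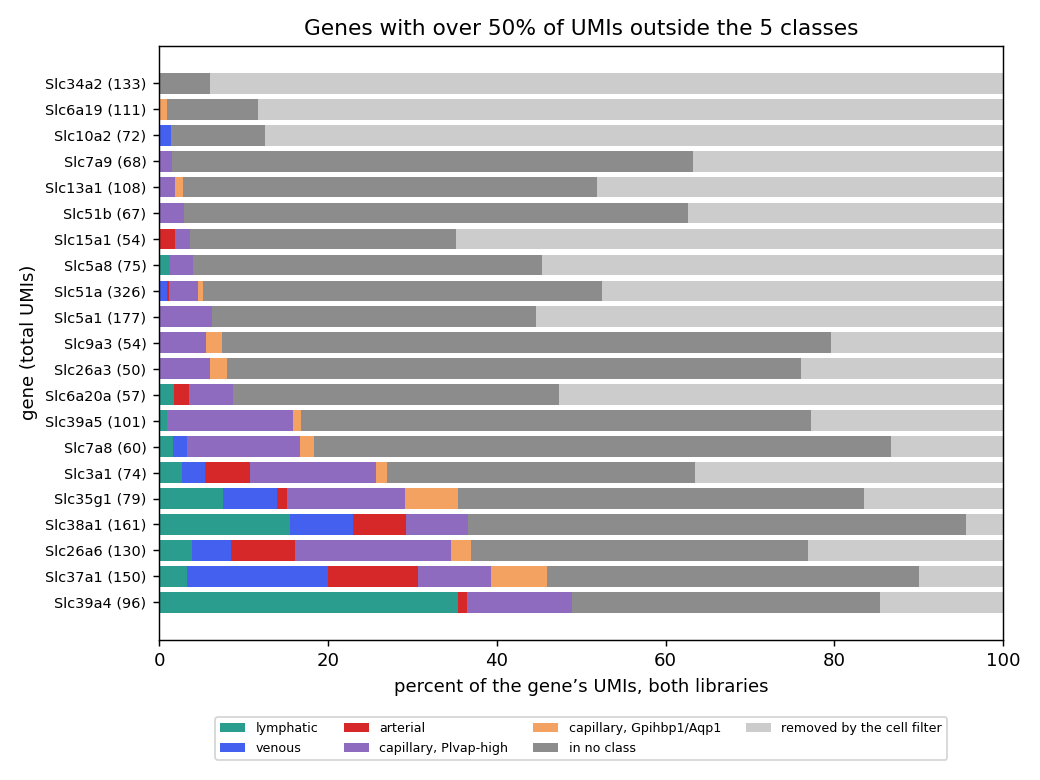
Share of each gene's UMIs, both libraries together, by where the cell fell, for the 21 members with over 50% of UMIs outside the 5 classes; total UMIs are in brackets after the gene name. From Slc34a2 down to Slc26a3, grey segments for cells of no class and cells removed by the cell filter hold at least 92% of each bar.

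Membership by total UMIs also took in 21 genes with over 50% of their UMIs in cells outside the 5 classes. The share of such genes among all genes with at least 50 UMIs was not computed, so this count is a description only. Most of those with over 90% are textbook carriers of the absorptive epithelium, among them Slc5a1 (SGLT1, glucose), Slc15a1 (PEPT1, peptides), Slc6a19 (neutral amino acids), Slc10a2 (bile acids) and Slc51a and Slc51b (bile acid efflux). Slc5a1 had 177 UMIs and Slc51a 326, of which 93.8 and 94.8% lay outside the classes, and Slc51a measured at most 1.02 CPM in a class. In the kept cells of no class, epithelial markers came to 7.77 CPM in library 1 and 17225 CPM in library 2, and in the classes to at most 750 CPM. Library 1 gave 122 of the 133 UMIs of Slc34a2, 91 of the 111 of Slc6a19 and 64 of the 72 of Slc10a2. Of the UMIs of these genes, 93.99% for Slc34a2, 88.3% for Slc6a19 and 87.5% for Slc10a2 lay in cells removed by the cell filter, whose epithelial markers were not analysed here. Slc39a4 (ZIP4), with 51.04% outside the classes, also had counts in lymphatic cells (7.29 and 10.1 CPM) and at most 1.15 CPM in blood classes.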

How the data were processed

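Single-cell libraries were made with 10x Genomics 3′ chemistry. Per the submitters' processing notes, the authors ran bcl2fastq 2.2 and Cell Ranger 3.1.0 against mm10, and the deposited matrices hold whole-number UMI counts per gene and cell. Which gene annotation they used is not stated there. Barcodes under 500 genes or over 15% mitochondrial counts were removed, which left 978 and 6067 cells. A doublet caller marked 6 cells in each library, under 0.5% in the larger one, and so cannot be taken to have worked there; none was removed. Between the libraries, 2 barcodes were shared. In libraries 1 and 2, 60 and 228 kept cells fell in no class. The lymphatic and blood gates were both passed by 3 and 96 cells, and the venous and arterial gates by 28 and 171, and such cells went to the first of lymphatic, venous and arterial. UMIs were summed over the cells of a class and library, giving 10 sums.

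Sums were tested with edgeR 4.0.16 in R 4.3.3 (quasi-likelihood F test, TMM scaling, filterByExpr with a minimum count of 10, Benjamini-Hochberg adjustment over 11243 genes), with the library as a block because classes of 1 library are paired by construction, leaving 4 residual degrees of freedom. The spread of each gene was moderated by that of all genes, with a median prior of 30.35 degrees of freedom, so p-values rest largely on spread borrowed from other genes. DESeq2 1.42.0 was an alternative. The pipeline was tested on simulated data for lymphatic against blood cells with 10834 genes tested: it called 66 of 100 genes changed by a log2 of 1, 88 of 100 changed by a log2 of 2, and 6 false ones. Changed genes lost to the expression filter counted as not called. The simulation gave every gene the same dispersion, no library effect beyond depth, and equal class means outside the changed genes. Its rates therefore do not carry over to the real sums. Intervals and detection floors cover counting error only. Members and lists were chosen with earlier results of these data known. Genes named with tests are, per comparison, the 10 largest increases and decreases among calls whose direction the libraries share and whose higher side reaches 20 CPM in each, the 3 members of each substrate group with the highest mean CPM, and members next to the limit of 50 UMIs. Genes mostly outside the classes, the genes of the partner lists and Slc7a6 were named after their values were seen. The 15 gate genes were not tested. Gene positions are from GENCODE vM21 (GRCm38), found for all 216 members. Some named genes are not reported here.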

Additional observations from a re-analysis of the deposited data

Results flagged for a closer look

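Members with over 50% of their UMIs in cells outside the 5 classes, that is in kept cells of no class or in cells removed by the cell filter, were singled out because none of the comparisons uses those cells. The share was 100% for Slc34a2 (phosphate), 99.1% for Slc6a19 (neutral amino acids), 98.6% for Slc10a2 (bile acids), 98.5% for Slc7a9 (cystine and basic amino acids), 97.2% for Slc13a1 (sulphate), 97.01% for Slc51b (bile acid efflux), 96.3% for Slc15a1 (peptides) and 96% for Slc5a8 (monocarboxylates). It was 94.8% for Slc51a, the partner of Slc51b, 93.8% for Slc5a1 (glucose), 92.6% for Slc9a3 (sodium-proton exchange), 92% for Slc26a3 (chloride-bicarbonate exchange) and 91.2% for Slc6a20a (proline; its reads are not separable from those of Slc6a20b with certainty).

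Lower shares were found for Slc39a5 (zinc) with 83.2%, Slc7a8 (neutral amino acids) with 81.7%, Slc3a1 (the heavy chain partner of Slc7a9) with 72.97%, Slc35g1 with 64.6%, Slc38a1 (neutral amino acids) with 63.4%, Slc26a6 (anion exchange) with 63.1%, Slc37a1 with 54% and Slc39a4 (zinc) with 51.04%.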

How the results depend on the processing

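The library is a block because its classes are paired. Of 181 calls on named members, DESeq2 ended 51, the fit with no replicate block 47, no scaling 12, leaving out cells passing 2 gates 10, stricter gates 9, cells with at least 2000 UMIs 8, no expression filter 4, fitting the compared classes alone 3 (with 176 kept and the rest without a value), leaving out cells rich in other markers (chosen after seeing the data) 3, removing the cells with the highest doublet scores 2 and leaving out tied capillary cells 1. For arterial against capillary cells, the 17 higher and 7 lower members became 6 and 2 with DESeq2 and 11 and 4 with no replicate block. For venous against capillary cells, the 21 lower members became 32 without scaling, 12 with DESeq2 and 11 with no replicate block. The 24 members lower in arterial than in venous cells became 15 with DESeq2 and 15 with no replicate block. Between the capillary classes, the 32 higher members became 17 with DESeq2 and 16 with no replicate block, and the 19 lower ones 11 with DESeq2. The cause of these differences was not tested. Over all genes, the 1045 called for arterial against capillary, 3142 for venous against capillary, 2487 for arterial against venous and 2644 between the capillary classes became 479, 1900, 1425 and 1305 with DESeq2 and 518, 2091, 1566 and 1353 with no replicate block. Leaving 1 library out left a value with no test: 44 values moved beyond the spread without library 1, and 85 without library 2, where Slc27a4 in lymphatic against blood cells turned from 1.12 (library 2 alone) to -0.47 (library 1 alone). Lymphatic levels of library 1 rest on 81 cells, where 3 UMIs come to 10.9 CPM.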
